A study of Arabidopsis thaliana with 24 samples.

Results

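ABCG proteins form a subfamily of the ATP-binding cassette (ABC) transporters, membrane pumps that use ATP to move lipids, hormones and defence compounds. Full-size members carry a pair of each of the nucleotide-binding and membrane domains in 1 chain, and plants have many of them, also called pleiotropic drug resistance proteins. This account covers transcripts of 10 of the 15 full-size ABCG genes of Arabidopsis thaliana among the 32833 gene loci of each count table: ABCG29, ABCG30, ABCG31, ABCG32, ABCG33, ABCG34, ABCG35, ABCG36, ABCG37 and ABCG40. They were chosen by locus, as relatives of ABCG40, with results of these libraries known. The values behind that choice are not recorded, so every comparison of NAE 18:3 with DMSO is given for these 10 genes as a description, with no p-value. Where such a comparison is said to be called, at an adjusted p under 0.05, the call only sorts the values and is not evidence about the genes.

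RNA came from whole seedlings of 4 days of age in the Col-0 background, in 24 libraries that form 8 groups of 3. Wild-type (WT) seedlings and seedlings of the agb1 mutant, whose allele the labels do not name, were kept in 0.2% DMSO or in 40 µM NAE 18:3, an N-acylethanolamine made from linolenic acid, for 1 h or 3 h. The mutated gene, AGB1, codes for the G protein beta subunit, and the study's title is about the need for the G protein in the chloroplast response of seedlings to N-acylethanolamines. Nothing in the labels says that the replicates are separate cultures, so the p-values measure the spread between these samples, which may be technical.

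Libraries held 18.0 to 61.9 M counts at 1 h and 20.0 to 51.9 M at 3 h. At 3 h depth was split by genotype without overlap, with 20.0 to 25.8 M in WT and 36.0 to 51.9 M in agb1. Genotype and library depth thus go together at 3 h, and the part of depth in the genotype differences was not tested. AGB1 transcript stayed detectable in agb1 seedlings, at 42.5 to 52.0 TMM-scaled CPM under DMSO at 1 h against 51.2 to 56.4 in WT, and at 22.1 to 30.9 against 47.3 to 48.3 at 3 h. All 7 root markers and both leaf markers were detected in every group, and the 5 seed storage markers summed to at most 2.29 CPM. Each time point has a table of its own, so time and table cannot be told apart, and levels at 1 h and 3 h were scaled separately.

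The genes have distinct known roles. ABCG40 imports the stress hormone abscisic acid into guard cells, ABCG30 works with it in seeds, and ABCG31 with the half-size transporter ABCG25 releases the hormone from the endosperm. ABCG36, also named PEN3, exports indolic defence compounds at sites of pathogen contact, and ABCG34 secretes the phytoalexin camalexin. ABCG37 releases coumarins from iron-starved roots and exports an auxin precursor, ABCG32 exports cutin precursors, and ABCG29 transports a lignin precursor. ABCG35 is a close relative of ABCG36, with 81.3% of aligned coding bases identical, and ABCG33 of ABCG37, with 81.0%.

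The 250 bases before the annotated gene start are shown for the 3 genes with the highest levels after 3 h of NAE 18:3, ABCG40, ABCG36 and ABCG34, and for ABCG32, whose level was lower after NAE 18:3. The sequences are from RefSeq, build TAIR10.1, written 5′ to 3′ on the strand of the gene, with matches on either strand in capitals. The motifs searched on both strands were the W-box core TTGAC, the G-box CACGTG and the shorter core it contains, ACGTG, with the bZIP site TGACG and the GCC-box element GCCGCC.
ABCG40 (chr1:5338327-5338576, minus strand): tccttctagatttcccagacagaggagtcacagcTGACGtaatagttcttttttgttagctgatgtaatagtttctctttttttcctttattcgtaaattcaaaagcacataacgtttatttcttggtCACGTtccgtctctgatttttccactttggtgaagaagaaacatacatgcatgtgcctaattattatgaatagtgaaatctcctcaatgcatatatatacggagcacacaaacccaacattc
ABCG36 (chr1:22034173-22034422, plus strand): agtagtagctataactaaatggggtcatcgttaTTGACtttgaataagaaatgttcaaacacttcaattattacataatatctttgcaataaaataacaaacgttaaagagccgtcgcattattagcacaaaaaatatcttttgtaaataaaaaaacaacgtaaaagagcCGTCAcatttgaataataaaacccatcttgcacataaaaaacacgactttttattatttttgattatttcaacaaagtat
ABCG34 (chr2:15257168-15257417, plus strand): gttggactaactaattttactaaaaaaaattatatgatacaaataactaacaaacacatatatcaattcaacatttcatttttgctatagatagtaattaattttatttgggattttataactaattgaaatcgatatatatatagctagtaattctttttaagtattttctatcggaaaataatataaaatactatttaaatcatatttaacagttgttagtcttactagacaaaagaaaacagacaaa
ABCG32 (chr2:11481076-11481325, plus strand): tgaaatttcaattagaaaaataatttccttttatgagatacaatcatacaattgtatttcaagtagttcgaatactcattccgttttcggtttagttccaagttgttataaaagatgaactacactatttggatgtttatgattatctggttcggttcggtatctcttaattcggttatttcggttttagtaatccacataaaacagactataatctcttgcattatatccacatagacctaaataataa

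ABCG40 held TGACG 216 bases and ACGTG 122 bases before the start, the latter read as CACGT on the strand shown. ABCG36 held TTGAC at 217 bases and TGACG at 80 bases. ABCG34 and ABCG32 held none of the 5 motifs in this window. Over the 10 genes, TGACG occurred in 4 (ABCG30, ABCG35, ABCG36 and ABCG40), TTGAC in 3 (ABCG33, ABCG35 and ABCG36), ACGTG in 1, and CACGTG and GCCGCC in 0. Among 27443 windows of the same length in the annotation, TTGAC occurred in 44.9%, ACGTG in 22.9%, TGACG in 18.6%, CACGTG in 6.49% and GCCGCC in 1.87%. The matches are descriptions of sequence, not of binding.

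ABCG40 (AT1G15520) was a rare transcript under DMSO and among the most abundant of the family after 3 h of NAE 18:3. In WT at 1 h it stood at 9.74, 9.11 and 10.95 CPM under DMSO and at 138, 124 and 72.8 CPM under NAE 18:3. In agb1 at 1 h the values were 12.6, 15.3 and 11.9 CPM under DMSO and 84.98, 112 and 54.9 CPM under NAE 18:3. Every treated library was above every DMSO library of its genotype, and in each genotype the third treated library was the lowest of its group.

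At 3 h the gap was far wider. WT libraries held 15.6, 16.2 and 25.2 CPM under DMSO and 5997, 5677 and 4075 CPM under NAE 18:3. In agb1 they held 20.2, 10.07 and 38.2 CPM under DMSO and 4701, 4038 and 5102 CPM under NAE 18:3. The treated groups of both genotypes overlapped each other, and no treated library came near a DMSO library. The 3 agb1 libraries under DMSO were uneven, with replicate 2 the lowest and replicate 3 the highest.

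On the log2 scale the difference between NAE 18:3 and DMSO was 3.47 (SE 0.32) in WT and 2.66 (SE 0.30) in agb1 at 1 h. At 3 h it was 8.11 (SE 0.48) in WT and 7.66 (SE 0.47) in agb1, fitted folds of 277 and 202. Counted from the largest fitted rise down, it ranked 22 in WT and 44 in agb1 of 21255 loci tested at 1 h, and 5 and 9 of 20672 at 3 h. Its share of all counts in a WT library was 0.00167 to 0.00255% under DMSO at 3 h and 0.368 to 0.526% under NAE 18:3. In bulk seedlings, more cells of a type that makes a transcript and more transcript per cell cannot be told apart. At 3 h other tissue markers moved with the treatment: the 7 root markers summed to 4158 to 4698 CPM in WT under DMSO and 1864 to 2747 CPM under NAE 18:3, and to 2599 to 3505 and 2180 to 2342 CPM in agb1. Of these 7, 4 rose and 2 fell in WT, beside 29.4% and 29.1% of all loci, with a median log2 difference of 1.33. In agb1 3 rose and 2 fell, beside 24.5% and 26.0%, with a median of 0.45. A sum of CPM weighs the most abundant markers most, and here it went the other way from the median. The part of these markers in the values of the ABCG genes was not tested.

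**Figure D1:**
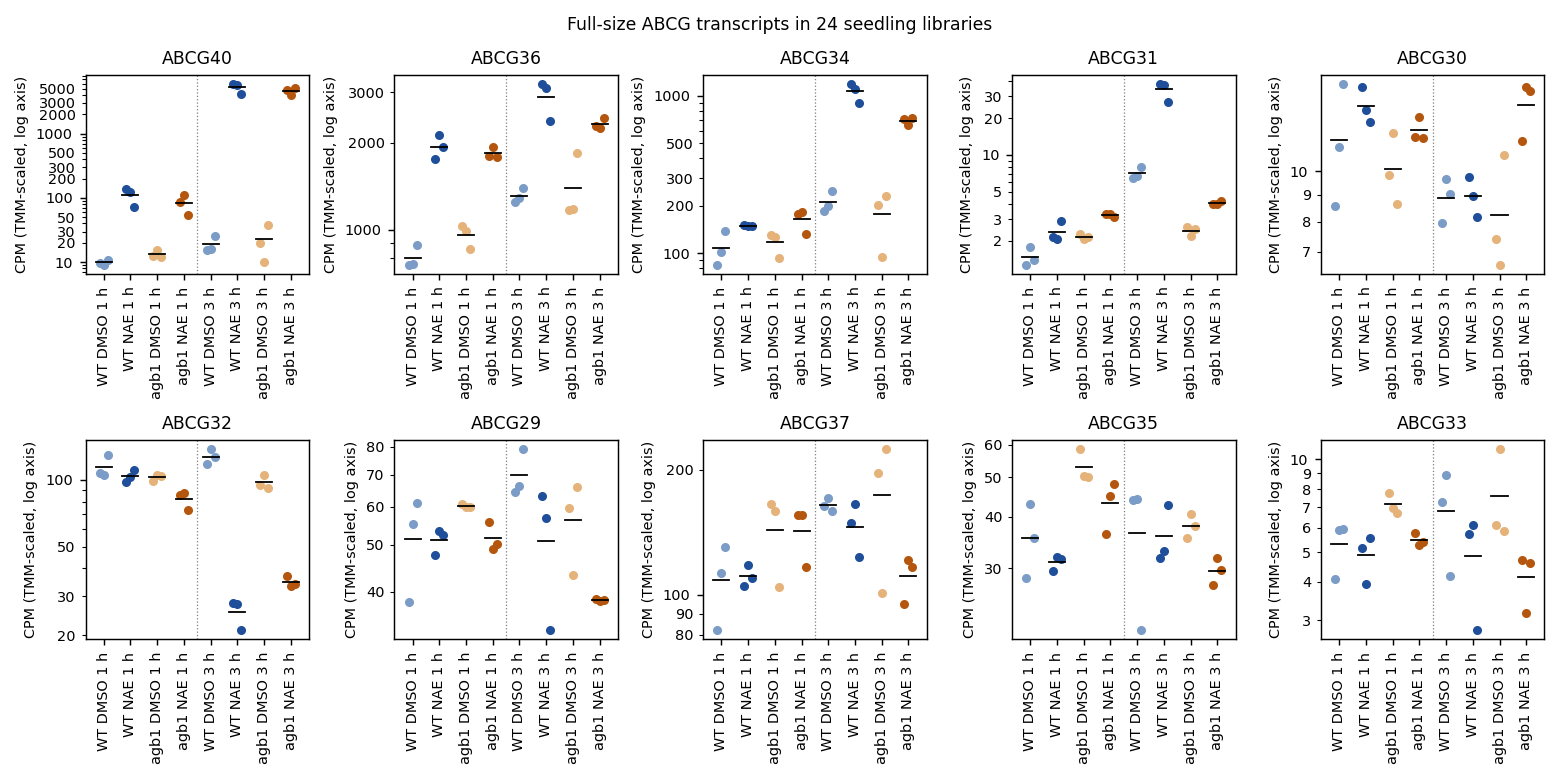
Transcript level (TMM-scaled CPM, log axis) of the 10 full-size ABCG genes in each of 24 libraries. Points are libraries, black lines are means of 3, blue is WT, orange is agb1, dark colours are NAE 18:3 and the dotted line separates the time points, which were scaled separately; ABCG40 reached 4038 to 5997 CPM in the 6 treated libraries at 3 h.

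ABCG36 (AT1G59870), the defence exporter, was the most abundant of the family under DMSO. At 1 h it stood at 755, 759 and 887 CPM in WT under DMSO and 1763, 2124 and 1929 under NAE 18:3. At 3 h the WT values were 1245, 1292 and 1390 CPM under DMSO and 3208, 3094 and 2377 under NAE 18:3. Treated and DMSO libraries of WT did not overlap at either time. The log2 differences were 1.28 (SE 0.10) at 1 h and 1.14 (SE 0.17) at 3 h. In agb1 at 3 h the level was 1173, 1182 and 1843 CPM under DMSO and 2293, 2257 and 2439 under NAE 18:3, a log2 difference of 0.74 (SE 0.17). The highest agb1 library under DMSO, replicate 3, was still below the lowest treated one. Its close relative ABCG35 (AT1G15210) stayed between 21.2 and 58.6 CPM over all 24 libraries and edgeR did not call it in any of the 4 comparisons of NAE 18:3 with DMSO. In agb1 its treated libraries all lay below its DMSO libraries at both times, and at 3 h it was called with only the 6 libraries compared (-0.37) and without WT DMSO replicate 3 (-0.36).

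ABCG34 (AT2G36380), the camalexin transporter gene, was high after 3 h of NAE 18:3 in both genotypes. At 1 h it held 84.2, 102 and 139 CPM in WT under DMSO and 151, 149 and 148 under NAE 18:3, and edgeR called it in neither genotype. DESeq2 called it in both at 1 h, as did edgeR without WT DMSO replicate 3, with log2 differences of 0.69 in WT and 0.49 in agb1. At 3 h the values were 185, 198 and 249 CPM under DMSO and 1199, 1102 and 904 under NAE 18:3 in WT. The agb1 values at 3 h were 201, 94.9 and 232 CPM under DMSO and 712, 654 and 725 under NAE 18:3. The treated libraries of both genotypes were at least as high as 654 CPM, and no DMSO library passed 249. The log2 differences at 3 h were 2.34 (SE 0.26) in WT and 1.98 (SE 0.26) in agb1.

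ABCG31 (AT2G29940), linked to abscisic acid release from the endosperm, was near the bottom of the family under DMSO. At 3 h its WT level was 6.55, 6.73 and 8.05 CPM under DMSO and 38.2, 37.3 and 27.2 under NAE 18:3. In agb1 it was 2.57, 2.17 and 2.50 CPM under DMSO and 4.01, 3.96 and 4.17 under NAE 18:3. Each agb1 library under NAE 18:3 was below each WT library under DMSO. The log2 difference for NAE 18:3 was 2.27 (SE 0.15) in WT and 0.75 (SE 0.16) in agb1 at 3 h, and 0.70 (SE 0.18) and 0.58 (SE 0.17) at 1 h. At 1 h all 12 libraries were between 1.27 and 3.29 CPM.

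ABCG30 (AT4G15230), the partner of ABCG40 in seeds, was called only in agb1 at 3 h among these 4 comparisons, where it held 7.41, 6.61 and 10.7 CPM under DMSO and 11.4, 14.5 and 14.2 under NAE 18:3. The log2 difference was 0.70 (SE 0.18) there and 0.01 (SE 0.18) in WT. The annotation of this locus overlaps that of ABCG42 on the same strand, so reads of the overlap could have been counted for either.

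ABCG32 (AT2G26910), the exporter of cutin precursors, was lower after 3 h of NAE 18:3. At 1 h its WT level was 107, 105 and 129 CPM under DMSO and 98.3, 104 and 111 under NAE 18:3, which overlap. At 3 h it was 118, 138 and 127 CPM under DMSO and 28.0, 27.7 and 21.1 under NAE 18:3. In agb1 at 3 h the values were 95.4, 105 and 92.4 CPM under DMSO and 36.8, 33.2 and 34.0 under NAE 18:3. The treated libraries of WT lay lowest, those of agb1 next, and both sets of DMSO libraries above. The log2 difference at 3 h was -2.32 (SE 0.12) in WT and -1.49 (SE 0.12) in agb1, and at 1 h it was -0.13 (SE 0.09) and -0.33 (SE 0.09).

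ABCG37 (AT3G53480), the coumarin and auxin precursor exporter, lay between 82.2 and 225 CPM over all libraries, with a log2 difference at 3 h of -0.17 (SE 0.23) in WT and -0.65 (SE 0.23) in agb1. ABCG29 (AT3G16340), the lignin precursor transporter, lay between 33.3 and 79.2 CPM, with -0.45 (SE 0.20) and -0.55 (SE 0.20). ABCG33 (AT2G37280) lay between 2.79 and 10.8 CPM, with -0.49 (SE 0.35) and -0.87 (SE 0.34). For ABCG37 the WT and the agb1 groups each overlapped between treatments at 3 h, and in agb1 the DMSO libraries held 197, 101 and 225 CPM. ABCG33 overlaps AT2G37290 on the opposite strand, and the strand setting of the counting is not stated.

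All 10 genes passed the filter on low counts in both tables. With edgeR's quasi-likelihood test and an adjusted p under 0.05 as the threshold, 3 of the 10 rose and 0 fell with NAE 18:3 in WT at 1 h, where 12.4% of all loci tested rose and 8.02% fell. In agb1 at 1 h 3 rose and 1 fell, beside 8.89% and 4.92% of all loci. At 3 h 4 rose and 1 fell in WT, beside 29.4% and 29.1%, and 5 rose and 4 fell in agb1, beside 24.5% and 26.0%. The choice of the genes may have drawn on these comparisons, so the counts are given without a reading. Without replicate 3 of WT under DMSO the count at 1 h in WT was 5, and in agb1 at 1 h it was 2 when replicate 2 or 3 under DMSO or replicate 3 under NAE 18:3 was left out. In agb1 at 3 h, where the calls of ABCG29, ABCG33 and ABCG37 were lost in several alternatives, it was 6 to 10 with 1 library left out.

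**Figure D2:**
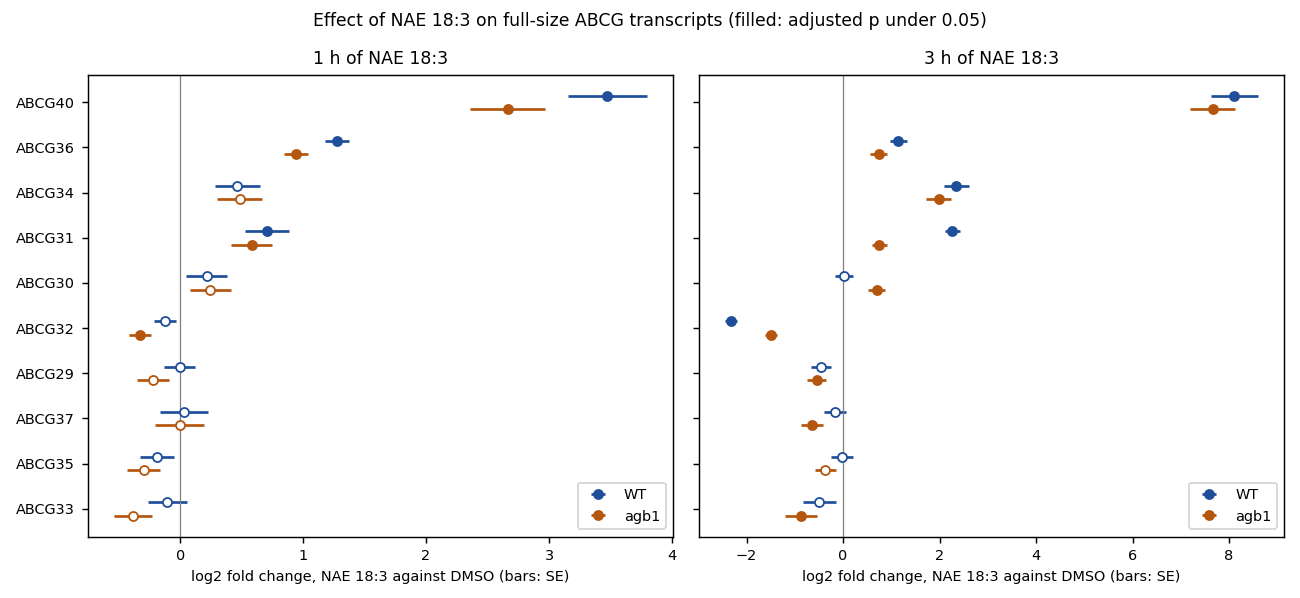
Log2 fold change for NAE 18:3 against DMSO (horizontal axis, bars are SE) of the 10 full-size ABCG genes at 1 h and 3 h in WT (blue) and agb1 (orange). Filled points had an edgeR adjusted p under 0.05; ABCG40 lies at 8.11 in WT and 7.66 in agb1 at 3 h, and ABCG32 at -2.32 and -1.49.

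Between the time points the effect of NAE 18:3 was called different for 4 of the genes in WT and for 3 in agb1, in the edgeR fit to all 24 libraries. In WT the effect at 3 h minus that at 1 h was 4.66 (SE 0.52) for ABCG40, 1.90 (SE 0.33) for ABCG34, 1.58 (SE 0.22) for ABCG31 and -2.17 (SE 0.15) for ABCG32. In agb1 it was 5.02 (SE 0.52) for ABCG40, 1.52 (SE 0.33) for ABCG34 and -1.15 (SE 0.14) for ABCG32. ABCG36, by contrast, had -0.10 (SE 0.20) in WT and -0.19 (SE 0.20) in agb1 and was not called. Of all 21700 loci tested the effect was higher at 3 h for 25.2% and lower for 22.8% in WT, and 17.0% and 17.5% in agb1. These values rest on the same comparisons with DMSO and are a description too.

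The genotypes were compared under DMSO with the same control libraries that the comparisons with NAE 18:3 use. The choice of the 10 genes may have drawn on this comparison too, so its p-values at 1 h and 3 h are descriptive. Under DMSO at 1 h, ABCG35 was higher in agb1, the only one of the 10 genes past the threshold, beside 5.63% of all loci higher and 5.75% lower. It held 28.3, 43.0 and 35.6 CPM in WT and 58.6, 50.3 and 50.0 in agb1, with no overlap, and a log2 difference of 0.58 (SE 0.13) and an edgeR adjusted p of 0.0175. Without WT DMSO replicate 1 the difference was 0.44, with an edgeR adjusted p of 0.0590. Without agb1 DMSO replicate 1 it was 0.50, with an edgeR adjusted p of 0.0760. DESeq2 called 4 genes in this comparison, ABCG31, ABCG33, ABCG35 and ABCG36, all higher in agb1. The share of all loci that DESeq2 called was not recorded, so its count is given without a reading.

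Under DMSO at 3 h, 0 of the 10 genes were higher and 2 were lower in agb1, beside 7.84% and 11.1% of all loci. ABCG31 was lower, with a log2 difference of -1.56 (SE 0.16) and an edgeR adjusted p of 2.57e-05, and no library of one genotype reached the other. The call held in all 18 alternatives, with adjusted p-values up to 0.00175. Under DMSO at 1 h ABCG31 lay the other way, at 1.27 to 1.79 CPM in WT and 2.04 to 2.25 CPM in agb1. That log2 difference was 0.57 (SE 0.18), not called in edgeR. ABCG32 was lower in agb1 at 3 h too, with a log2 difference of -0.38 (SE 0.11) and an adjusted p of 0.0307 in edgeR. It missed the threshold when WT DMSO replicate 2, WT DMSO replicate 3 or agb1 DMSO replicate 3 was left out, with edgeR adjusted p-values of 0.0825, 0.0674 and 0.0563, and with only the 6 libraries compared, with 0.0546. For ABCG40 agb1 minus WT was 0.27 (SE 0.36), for an edgeR adjusted p of 0.653, and -0.37 without agb1 DMSO replicate 3. The summed CPM of the 2 leaf markers was 13954 to 17510 in WT and 8198 to 9471 in agb1 under DMSO at 3 h, and that of the 7 root markers 4158 to 4698 and 2599 to 3505. Of the 7 root markers 1 was called higher and 1 lower in agb1 (median 0.02), and of the 2 leaf markers 0 were higher and 2 lower. The part of these markers in the differences of the ABCG genes was not tested.

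The difference between the effects of NAE 18:3 in agb1 and in WT is built from the same comparisons with DMSO, so it is a description for these genes too. At 1 h edgeR and DESeq2 each called 0 of the 10 genes, beside 0% of all loci with a higher and 0.0753% with a lower effect in agb1 in edgeR. At an unadjusted edgeR p under 0.05 there was 1, ABCG36, with a log2 difference of -0.33 (SE 0.14), beside 9.11% of all loci. At 3 h 1 of the 10 was called higher and 1 lower, beside 1.32% and 1.65% of all loci. ABCG31 had a smaller effect in agb1, with a difference of -1.52 (SE 0.21). ABCG32 had a smaller fall in agb1, with a difference of 0.82 (SE 0.16), which was 0.78 and no longer called without agb1 NAE replicate 1.

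For ABCG40 the effect in agb1 minus that in WT was -0.81 (SE 0.42) at 1 h and -0.45 (SE 0.51) at 3 h, neither called in edgeR. The value at 3 h was 0.22 without agb1 DMSO replicate 3. ABCG36 and ABCG34 had -0.41 (SE 0.24) and -0.36 (SE 0.35) at 3 h and were not called. ABCG30 and ABCG37 were not called with all libraries. Without agb1 DMSO replicate 3 ABCG30 was called, with 0.99, and without agb1 DMSO replicate 2 ABCG37 was called, with -0.70. The root markers summed to 1864 to 2747 CPM in treated WT and 2180 to 2342 CPM in treated agb1 at 3 h, the leaf markers to 15041 to 18873 and 10221 to 11379. Among the 9 marker genes of root and leaf, LHCB1.1, named after its values were seen, had a higher effect in agb1 by 1.61 (SE 0.23). The part of these markers in the genotype differences was not tested.

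Levels of different genes were compared per kb of coding sequence. In WT under DMSO at 1 h ABCG36 stood first at 182 ± 17.0 CPM per kb (SD, n = 3), followed by ABCG32 at 26.7 ± 3.06, ABCG37 at 24.9 ± 5.62 and ABCG34 at 24.8 ± 6.38, which did not differ beyond their spread. Next came ABCG29 at 12.1 ± 2.80 and ABCG35 at 8.23 ± 1.69. ABCG30 at 2.73 ± 0.736 and ABCG40 at 2.33 ± 0.219 lay within their spread of each other, above ABCG33 at 1.22 ± 0.242 and ABCG31 at 0.346 ± 0.0632. After 3 h of NAE 18:3 in WT the order was ABCG40 at 1229 ± 241 CPM per kb, ABCG36 at 656 ± 102, ABCG34 at 245 ± 34.4 and ABCG37 at 33.5 ± 4.95. ABCG29, ABCG35, ABCG31 and ABCG32 followed, with ABCG35 at 8.28 ± 1.39.

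Summed over all 15 full-size genes, the pool was 429 to 478 CPM per kb in the WT libraries under DMSO at 3 h and 1765 to 2489 under NAE 18:3. In agb1 it was 379 to 591 and 1671 to 1979. ABCG40 made up 0.842 to 1.23% of the WT pool under DMSO and 54.0 to 56.4% under NAE 18:3, and 56.6 to 60.4% in treated agb1. ABCG36 made up 65.1 to 66.0% in WT under DMSO and 29.2 to 30.5% under NAE 18:3, and ABCG32 6.23 to 7.19% and 0.264 to 0.281%. At 1 h ABCG36 still held 73.0 to 76.0% of the treated WT pool and ABCG40 2.95 to 5.88%.

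**Figure D3:**
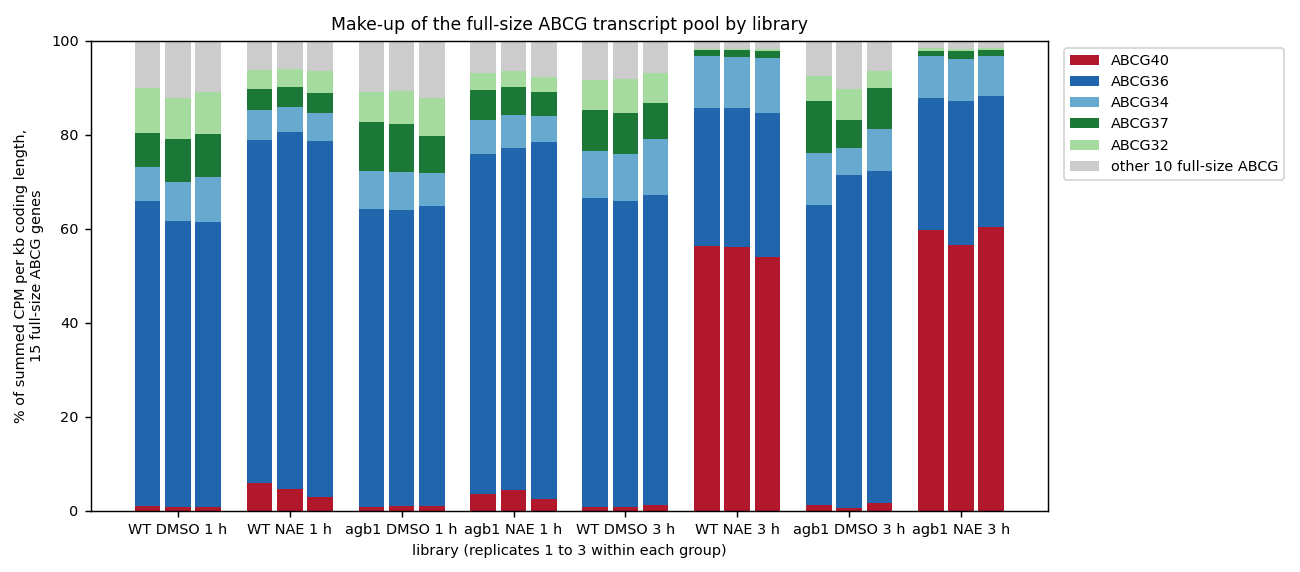
Share (%) of the summed CPM per kb of coding length of all 15 full-size ABCG genes, one bar per library, replicates 1 to 3 within each group. ABCG40 takes 54.0 to 60.4% in the 6 libraries under NAE 18:3 at 3 h and at most 5.88% in every other library.

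Of the other 5 full-size genes, ABCG38 had at most 0.271 CPM in any library and did not pass the filter. ABCG39, a close relative of ABCG34 with 88.4% of aligned coding bases identical, fell in WT at 1 h by a log2 difference of 0.99 (SE 0.30) and at 3 h it fell by 3.21 (SE 0.83), from levels under 1 CPM. In agb1 it fell at 1 h by 1.45 (SE 0.27), and at 3 h it was not called (-0.89, SE 0.59). ABCG43 rose in WT at 1 h (1.61, SE 0.24) and 3 h (1.34, SE 0.34) and in agb1 at both times, and ABCG42 rose at 1 h in WT (0.71, SE 0.10) and agb1 (0.86, SE 0.10). ABCG42 was also higher in agb1 than in WT under DMSO at 3 h (1.34, SE 0.32), where its agb1 libraries held 17.2, 54.9 and 32.5 CPM. These 2 genes share 340 stretches of 75 bases, the read length, which is 7.23% of those of ABCG42 and 8.30% of those of ABCG43, so their counts are uncertain. ABCG41 was not called in any comparison. The 10 genes above shared at most 1 such stretch with another gene.

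The gene lists that follow were also chosen with earlier results of these data known. Their counts, medians and shares are a description and not evidence about the lists. The half-size ABCG genes, whose proteins carry a single domain pair and work as dimers, mostly fell at 3 h. Of the 28 in the list, 23 were tested: in WT 1 rose and 16 fell, beside 29.4% and 29.1% of all loci, with a median log2 difference of -0.89 beside 0.00 over all loci tested, and in agb1 2 rose and 14 fell, beside 24.5% and 26.0%, with a median of -0.56 beside -0.03. ABCG21 rose in both genotypes and ABCG16 in agb1, named after their values were seen. ABCG11 and ABCG12, which export wax and cutin components in the epidermis, fell at 3 h. Their log2 differences were -2.27 (SE 0.11) and -2.09 (SE 0.11) in WT, and -1.87 (SE 0.11) and -1.85 (SE 0.11) in agb1. ABCG15 was the 1 half-size gene with a called genotype difference at 3 h, higher in agb1 by 0.89 (SE 0.21); it was named after its values were seen. At 1 h 6 rose and 2 fell in WT (median 0.05), beside 12.4% and 8.02% of all loci, and 1 rose and 2 fell in agb1 (median -0.02), beside 8.89% and 4.92%. In WT they included ABCG16, which rose (4.95 to 8.03 CPM under DMSO and 12.5 to 15.4 CPM under NAE 18:3), and ABCG14, a cytokinin exporter, which fell by 0.64 (SE 0.11).

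Genes of cutin and cuticle formation, the pathway that ABCG32 serves, mostly fell at 3 h, which is a description too. Of 12 tested, 0 rose and 11 fell in WT, with a median of -2.39, and 0 rose and 11 fell in agb1, with a median of -1.67, beside medians of 0.00 and -0.03 over all loci. Of all loci 29.1% fell in WT and 26.0% in agb1. The list holds ABCG11, ABCG12 and ABCG13, so it overlaps the half-size genes. GPAT4, an acyltransferase of cutin monomer synthesis, fell in WT by 2.82 (SE 0.14). By median the list fell less in agb1, at -1.67 against -2.39 in WT. For 5 of the 12 the log2 effect in agb1 minus that in WT was called above 0, and for 0 below 0, beside 1.32% and 1.65% of all loci. The median difference was 0.87, beside -0.02 over all loci. The 5 were GPAT4, LACS2, GPAT8, HTH and BDG1, of which the first 3 were named after their values were seen for this comparison. HTH, needed for the separation of floral organs, lay at 63.8 to 81.3 CPM in WT under DMSO and at 8.62 to 9.40 CPM under NAE 18:3 at 3 h. In agb1 it lay at 57.6 to 86.6 CPM and 19.7 to 29.0 CPM, and the genotype difference was 1.53 (SE 0.24) (edgeR adjusted p = 0.00586). BDG1, a hydrolase needed for the cuticle, had 1.24 (SE 0.22) with an adjusted p of 0.00936 in edgeR. HTH and BDG1 were named for having the smallest p of the list in this comparison, so these p-values are descriptive.

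Genes of indolic and camalexin defence, which include makers of the compounds ABCG36 and ABCG34 carry, mostly rose. This too is a description of a list chosen with earlier results known. In WT 6 of 8 tested rose and 0 fell at 1 h (median 0.70 beside -0.02 over all loci), where 12.4% of all loci rose, and 6 of 9 rose and 2 fell at 3 h (median 0.79), where 29.4% rose and 29.1% fell. CYP71A12 and CYP79B2, early enzymes of indolic synthesis named after their values were seen, were the 2 that fell in WT. In agb1 it was 6 of 8 with 0 falls at 1 h and 5 of 9 with 1 fall at 3 h, beside 8.89% and 24.5% of all loci that rose. The DMSO level at 3 h differed between genotypes: 0 of the 9 were higher and 4 lower in agb1, beside 7.84% and 11.1% of all loci. The median of agb1 minus WT there was -0.42, beside 0.02 over all loci. The list also holds SYP121, the syntaxin also named PEN1, which is not an enzyme of these compounds. SYP121 rose by 2.21 (SE 0.14) in WT and 1.86 (SE 0.14) in agb1 at 3 h. PEN2, the myrosinase that acts with ABCG36 in the same defence, rose in WT by 0.97 (SE 0.11) at 3 h. Its effect in agb1 was lower, with a difference of -0.96 (SE 0.16) and an edgeR adjusted p of 0.00796. PEN2 was named for this comparison after its values were seen, so the p-value is descriptive. For this genotype difference PEN2 was the 1 gene of 9 called lower and 0 were higher, beside 1.65% and 1.32% of all loci. PAD3, the last enzyme of camalexin synthesis and named here after its values were seen, rose by 3.08 (SE 0.41) in WT at 3 h and by 2.59 (SE 0.40) in agb1. CYP81F2, of indole glucosinolate modification, rose at 1 h by 2.08 (SE 0.18) in WT.

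Among 4 other carriers of abscisic acid, DTX50, an exporter of the hormone, lay at 9.28 to 10.7 CPM under DMSO and 196 to 246 CPM under NAE 18:3 in WT at 3 h. In agb1 it lay at 5.87 to 8.36 CPM and 99.5 to 113 CPM. The log2 differences were 4.43 (SE 0.15) and 3.94 (SE 0.15). NPF4.6, an importer, rose by 0.53 (SE 0.10) and 0.49 (SE 0.10). In WT at 3 h 2 of the 4 rose and 2 fell (median 0.01), beside 29.4% and 29.1% of all loci, the latter ABCG22 (-0.89, SE 0.29) and ABCG25 (-0.52, SE 0.18), both named after their values were seen.

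Of 14 ABCC transporters tested, a separate family of vacuolar pumps, 8 rose and 2 fell in WT at 3 h (median 0.75), beside 29.4% and 29.1% of all loci. In agb1 5 rose and 3 fell (median 0.23), beside 24.5% and 26.0%. ABCC11 rose by 1.84 (SE 0.16) in WT and ABCC14 fell by 1.63 (SE 0.12). Of 5 coumarin and iron uptake genes tested, which include the pathway to the compounds ABCG37 releases, 4 fell and 0 rose in WT at 1 h, beside 8.02% and 12.4% of all loci. At 3 h 1, F6H1, fell, beside 29.1%. F6H1, which makes scopoletin, fell at 1 h by 1.32 (SE 0.12) and FIT, the regulator of iron uptake, fell by 1.39 (SE 0.19). Of 11 genes of monolignol synthesis, the source of the substrate of ABCG29, 1 rose and 5 fell in WT at 3 h (median -0.13), beside 29.4% and 29.1% of all loci. In agb1 1 rose and 9 fell (median -0.77), beside 24.5% and 26.0%, with CAD4, an alcohol dehydrogenase of the pathway, at -1.77 (SE 0.09) and -1.91 (SE 0.09).

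**Figure D4:**
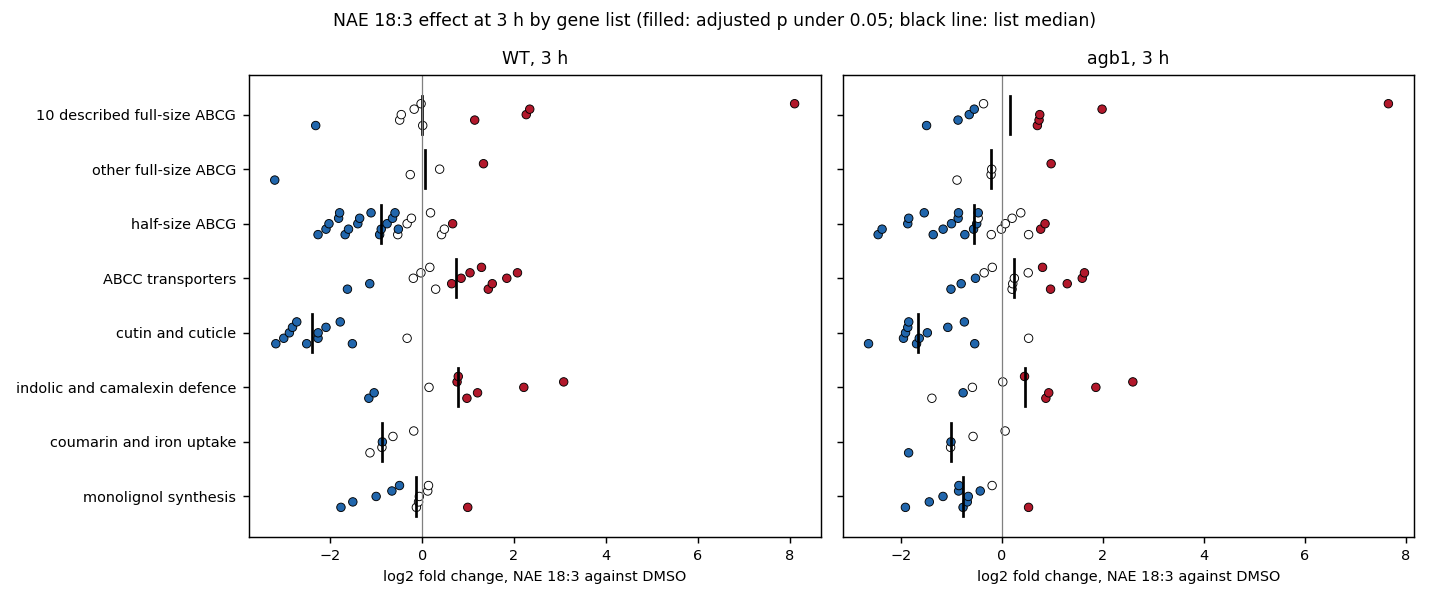
Log2 fold change for NAE 18:3 against DMSO at 3 h (horizontal axis) for the genes of each list in WT and agb1; filled points had an edgeR adjusted p under 0.05 (red rose, blue fell) and black lines are list medians. In WT the cutin list has a median of -2.39 with 11 of 12 fallen, and the indolic and camalexin list a median of 0.79 with 6 of 9 risen.

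The 5 loci whose log2 level over the 24 libraries was most like that of ABCG40, among 15527 loci with a mean of at least 5 CPM, were CEJ1, an ERF-type transcription factor gene (r = 0.992), WRKY25, a WRKY factor gene (r = 0.992), the zinc finger gene AT3G46080 (r = 0.991), HSFB2A, a heat shock factor gene (r = 0.991), and ALA1, an aminophospholipid pump gene (r = 0.990). Libraries of a group share treatment and time, so these r values describe the contrast between groups and carry no p-value. At 3 h in WT, AT3G46080 differed between NAE 18:3 and DMSO by 5.04 (SE 0.21), CEJ1 by 4.20 (SE 0.27), HSFB2A by 3.46 (SE 0.19), WRKY25 by 3.41 (SE 0.18) and ALA1 by 2.54 (SE 0.18), all smaller than ABCG40. Among the full-size genes that reached this mean ABCG34 was most like ABCG40 (r = 0.92, rank 761), then ABCG36 (0.89) and ABCG31 (0.68), and ABCG32 was the most unlike (-0.93, rank 15321). ABCG38, ABCG39 and ABCG43 did not reach it and were not ranked. ABCG31 averaged 34.2 CPM in WT after 3 h of NAE 18:3 and at most 7.11 CPM in any other group. It reached the mean largely through that 1 group, so its r is not evidence of likeness.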

How the data were processed

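Counts per gene locus were deposited for 24 libraries, as 1 table of 12 libraries for each time point. Per the submitters' processing notes, STAR, DESeq2 and build TAIR10 were used; the counting tool and its strand setting are not given in the sources used here. A second deposited table per time point holds signal values that equal the counts divided by 1 size factor per library (24 of 24 libraries within 0.01 counts); it served as a check. Locus names came from RefSeq (TAIR10.1), which matched 32548 of 32833 loci.

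Counts were filtered (filterByExpr by group, minimum count 10, minimum total 15), scaled by TMM and tested with edgeR 4.0.16 (robust quasi-likelihood F test, R 4.3.3, limma 3.58.1), with Benjamini-Hochberg adjustment over all loci and a threshold of 0.05. Each time point was fitted on its 12 libraries, and differences between times on all 24. The SE given with an edgeR value is the size of the log2 fold change divided by the square root of its F statistic. It is thus derived from the test and is not an SE estimated by the model. Alternatives were RLE scaling, no filter, a mean of at least 1 CPM, DESeq2 1.42.0, a replicate block, only the 6 libraries compared, and each library left out. The code was tested on simulated counts. Likeness to ABCG40 was Pearson's r of log2(CPM + 0.5) over loci of at least 5 CPM on average.

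The genes and lists were chosen with earlier results of these data known. The text names the 15 full-size genes, the 2 genes of smallest p of each other list with at least 3 calls in a comparison, and the 5 loci most like ABCG40; others are marked as chosen after their values were seen. Promoter windows are 250 bases cut from the TAIR10.1 genome, where 300 had been planned. The count tables hold no coordinates.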

Additional observations from a re-analysis of the deposited data

Results flagged for a closer look

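The effect of NAE 18:3 at 3 h was called different between genotypes by the edgeR interaction term for ABCG31, with -1.52 for agb1 minus WT, and for ABCG32, with 0.82. The 3 treated WT libraries held ABCG31 at 27.2 to 38.2 CPM and the 3 treated agb1 libraries at 3.96 to 4.17 CPM. For ABCG32 the treated libraries held 21.1 to 28.0 CPM in WT and 33.2 to 36.8 CPM in agb1.

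The effect of NAE 18:3 at 3 h minus that at 1 h stood out in WT for ABCG40 (4.66), ABCG34 (1.90), ABCG31 (1.58) and ABCG32 (-2.17), and in agb1 for ABCG40 (5.02), ABCG34 (1.52) and ABCG32 (-1.15), on the log2 scale. Each time point has its own count table, so time and table cannot be told apart.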

How the results depend on the processing

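With 1 library left out in turn, the number of the 10 genes called was 2 to 5 for NAE 18:3 in WT at 1 h, 2 to 5 in agb1 at 1 h, 5 to 6 in WT at 3 h and 6 to 10 in agb1 at 3 h. Between genotypes under DMSO it was 0 to 2 at 1 h and 1 to 2 at 3 h. For the genotype difference it was 0 at 1 h and 1 to 3 at 3 h, and for the time difference 4 to 5 in WT and 3 to 4 in agb1. Under DMSO at 1 h, where 1 gene was called, DESeq2 called 4 and the 6 libraries alone 2. At 3 h, where 2 were called, the 6 libraries alone gave 1. Shares of all loci were not recorded for the alternatives. Of 36 same-numbered pairs of libraries, 10 correlated above 0.1 (r from -0.32 to 0.44), so the numbers were not taken as pairs. A replicate block gave 7 calls against 9 in agb1 at 3 h and the same number in the other 9 comparisons.

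Of the single-gene values under alternatives, 1631 kept direction and side of the threshold, 24 gained and 39 lost a call, and 66, in 26 comparisons of a gene, changed sign. None of the 66 was called with all libraries or under the alternative, and 60 came from leaving out a library. For those, the leave-out ranges follow. With NAE 18:3 in WT they were -0.19 to 0.14 for ABCG29, -0.27 to 0.026 for ABCG33 and -0.14 to 0.19 for ABCG37 at 1 h, and -0.12 to 0.075 for ABCG30 and -0.30 to 0.095 for ABCG35 at 3 h. In agb1 at 1 h the range was -0.19 to 0.13 for ABCG37. Between genotypes under DMSO they were -0.38 to 0.054 for ABCG30 and -0.045 to 0.33 for ABCG34 at 1 h. At 3 h they were -0.38 to 0.019 for ABCG30, -0.19 to 0.38 for ABCG33, -0.54 to 0.026 for ABCG34, -0.21 to 0.20 for ABCG35, -0.19 to 0.19 for ABCG36, -0.18 to 0.35 for ABCG37 and -0.37 to 0.61 for ABCG40. For the genotype difference they were -0.21 to 0.22 for ABCG30, -0.25 to 0.043 for ABCG31, -0.20 to 0.18 for ABCG34, -0.26 to 0.036 for ABCG35 and -0.22 to 0.13 for ABCG37 at 1 h, and -0.32 to 0.11 for ABCG29, -0.67 to 0.0096 for ABCG33 and -0.76 to 0.22 for ABCG40 at 3 h. For the time difference they were -0.078 to 0.35 for ABCG35 in WT, and -0.16 to 0.038 for ABCG35 and -0.31 to 0.061 for ABCG36 in agb1. The other 6 were near 0. With NAE 18:3 ABCG29 had 0.0032 (WT, 1 h) and ABCG35 0.00048 (WT, 3 h) with a replicate block, ABCG37 0.0042 (agb1, 1 h) with no filter, and ABCG30 (WT, 3 h) -0.0049 with RLE scaling, -0.0049 in DESeq2 and -0.018 with only the 6 libraries. The cause was not tested. At under 1 CPM, ABCG39 had an SE of 0.83 for NAE 18:3 in WT at 3 h, against 0.12 for ABCG32.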
